A study of Mus musculus with 18 samples.

Results

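The 10 immediate early genes Fos, Fosb, Jun, Junb, Jund, Egr1, Nr4a1, Ier2, Dusp1 and Atf3 were followed in sorted splenic natural killer (NK) cells by RNA sequencing. They were chosen as AP-1, EGR and related early genes, which also respond to cell handling, were matched by Ensembl ID, and make up 10 of the 41388 genes listed in each deposited file. The series asks which genes the T-box transcription factor Eomes regulates at different steps of NK cell maturation. KO cells came from tamoxifen-treated mice that carried the alleles Ncr1-iCreERT2 KI/WT and Rosa26YFPLSL together with Eomesfl/fl. There a tamoxifen-activated Cre, made from the Ncr1 locus, a gene of NK cells and other innate lymphocytes, removes the floxed Eomes alleles. WT cells came from mice labelled only as WT. All mice were C57BL/6, 8 to 12 weeks old, and the labels' protocol names 3 days of tamoxifen without saying whether WT mice received it or carried Cre, so the deletion cannot be told apart from tamoxifen or Cre itself. Surface CD27 and CD11b defined the stages, with CD27+CD11b- cells as stage II, double-positive CD27+CD11b+ cells as stage III and CD27-CD11b+ cells as stage IV. There were 3 libraries in each of the 6 groups, 18 in all. Splenocytes were pooled before sorting, from a number of mice the labels leave out. The labels speak of 3 experiments without tying a replicate number to any of them, so a replicate number is used below only as a name that libraries share.

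Immediate early genes are switched on within minutes of a signal without new protein synthesis, mostly through MAP kinases that act on factors already bound at their promoters, such as SRF with its partners and CREB. Their products are themselves transcription factors and feedback regulators: FOS and JUN proteins pair as AP-1, EGR1 is a zinc finger factor, NR4A1 (Nur77) is an orphan nuclear receptor, and DUSP1 removes phosphate from MAP kinases. In lymphocytes they mark recent receptor or cytokine signals, and tissue dissociation, cooling and sorting are also known to induce them.

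The libraries held 18684350 to 28365837 counts. The number of genes with a count was smallest in replicates 1 (14824) and 3 (16536) of KO stage III, and largest in KO stage IV replicate 3 (27912) and WT stage II replicate 1 (29859). Within each stage the KO and WT ranges of Eomes did not overlap, with 55.2 to 74.3 CPM (counts scaled to the library total) in KO and 191 to 213 CPM in WT at stage II, 135 to 160 CPM and 250 to 287 CPM at stage III, and 89.8 to 121 CPM and 237 to 275 CPM at stage IV. The summed CPM of 10 NK cell markers was 18648 to 30704 per library, and none of these markers was at 0 in any library. No pair of libraries of the same group agreed within sampling noise, and pairs across groups were not compared.

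All 10 members were well covered in these cells. Per kilobase of transcript, Fos, the main partner of JUN in AP-1, was the most abundant, with a median of 541 RPKM (CPM per kilobase of listed gene length) over the 18 libraries and a range of 262 to 1072 RPKM. It was followed by the early response gene Ier2 (283 RPKM), the phosphatase Dusp1 (189 RPKM), Nr4a1 (171 RPKM) and Junb (160 RPKM). Jun (104 RPKM), Fosb (44.8 RPKM), the stress-induced factor Atf3 (32.9 RPKM), Jund (16.4 RPKM) and Egr1 (11.8 RPKM) were lower. The ranges of neighbours in this order overlapped throughout, so the order is one of medians only. The spread of a single gene was far from equal. Jund, known as the JUN gene that resting cells keep on, differed 2.25-fold between its lowest and highest library, whereas Atf3 differed 158-fold, Nr4a1 22.9-fold, and the remaining 7 genes 3.30-fold (Ier2) to 7.52-fold (Egr1). Jun overlaps the antisense gene Junos, which held 487 counts in all libraries together, and Jund overlaps the antisense gene Gm11175, which held 0. The sources used here give no strand setting for the counting, so reads of these pairs cannot be told apart.

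**Figure D1:**
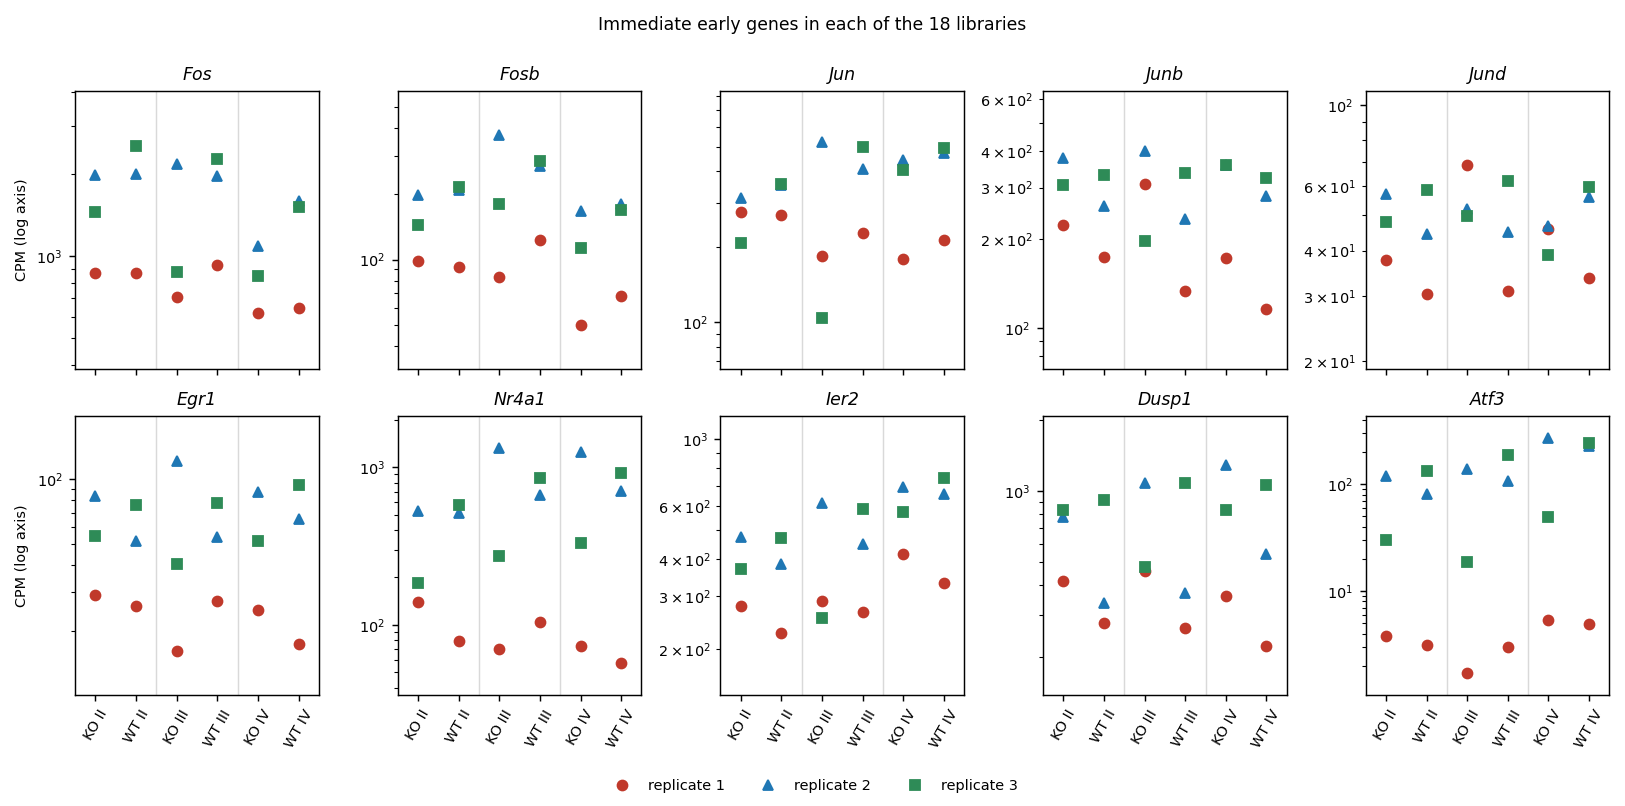
Level in CPM of each of the 10 genes (log axis, scaled per gene) in the 18 libraries, with KO left of WT within each maturation stage and 1 symbol per library by replicate number. The replicate 1 libraries (circles) were the lowest of their group in 54 of the 60 gene and group panels, and those of Egr1, Nr4a1 and Atf3 lay below all other libraries.

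For the 10 members, the replicate number gave more calls than genotype or stage did. This was not so over all tested genes. There 2.08% were called by number, 0.509% to 7.90% by genotype within a stage, and 2.97% to 17.7% between stages within a genotype. These tests of genotype and stage left the number in the spread, while the test by number held the groups fixed. A joint edgeR quasi-likelihood test of any difference among the 3 numbers, with the 6 groups held fixed, called 8 of the 10 members at an adjusted p under 0.05, against a background of 2.08% of the 14156 genes tested. Fos, Fosb, Junb, Egr1, Nr4a1, Ier2, Dusp1 and Atf3 passed, and Jun (adjusted p = 0.138) and Jund (adjusted p = 0.354) did not. The same 8 were lower in replicate 1 than in replicates 2 and 3 by the edgeR contrast of these numbers, against 2.50% of all genes lower and 3.89% in either direction. Replicate 1 was singled out with the summed level of such genes already known, so this contrast gives the size of the difference and is not independent evidence for it. The fits by number, here and below, take all libraries as independent. Same-numbered WT libraries of different stages deviated together, so the standard errors, intervals and p-values by number may be too small. The median log2 difference of the 10 members was -1.22, beside 0.01 over all tested genes.

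Atf3, a factor of the ATF/CREB family that stress signals induce, differed most. It had 1.71, 3.49 and 5.35 CPM (lowest, median and highest of 6) in the replicate 1 libraries, and 18.9, 126 and 271 CPM (lowest, median and highest of 12) in replicates 2 and 3. No replicate 1 library reached the lowest of the others, and the lowest of those was KO stage III replicate 3. The log2 difference was -5.12 ± 0.49 (SE, n = 6 and 12 libraries), or 34.8-fold lower (adjusted p = 1.0e-04, edgeR). This was the lowest fitted log2 difference of all 14156 genes tested. In raw counts Atf3 ran from 34 to 6810 per library.

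Nr4a1, which encodes a nuclear receptor induced by antigen receptor and other signals in lymphocytes, had 57.6, 76.7 and 140 CPM in replicate 1 (lowest, median and highest of 6) and 183, 625 and 1316 CPM in replicates 2 and 3 (of 12). The ranges did not overlap, and the difference was -2.89 ± 0.39 (log2, SE), or 7.42-fold lower (edgeR adjusted p = 7.95e-04). Egr1, the zinc finger factor, had 16.2, 25.5 and 29.2 CPM in replicate 1 and 40.4, 70.6 and 122 CPM in replicates 2 and 3. It was also without overlap, at -1.65 ± 0.22, or 3.14-fold lower (edgeR adjusted p = 7.87e-04). These 3 genes were the members whose 6 replicate 1 libraries all lay below the other 12, which 0.268% of all tested genes did.

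Among the FOS genes, Fosb was lower by -1.32 ± 0.12 (log2, SE) and Fos by -1.13 ± 0.14. Fos had 616, 786 and 930 CPM in replicate 1 and 844, 1773 and 2521 CPM in replicates 2 and 3, with overlap only at the KO stage III and IV replicate 3 libraries. The feedback phosphatase Dusp1 was lower by -1.31 ± 0.26, and Junb and Ier2 by -0.83 ± 0.17 and -0.83 ± 0.14. The Junb call ended without WT stage III replicate 1 (edgeR adjusted p = 0.0627) and without WT stage IV replicate 1 (0.058). Jun, at -0.75 ± 0.22 (adjusted p = 0.0757), and Jund, at -0.40 ± 0.17 (adjusted p = 0.204), were the members that did not pass in edgeR. Jun had its lowest value of all, 104 CPM, in KO stage III replicate 3. It passed without that library (adjusted p = 0.00811) and without KO stage II replicate 1 (0.0442). Without both KO stage III replicates 1 and 3, the libraries with the fewest detected genes, Jun (-0.79) and Jund (-0.59) passed too (adjusted p = 0.0121 and 0.0264). KO stage III then has 1 library and adds nothing to this contrast.

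The sequence just before the RefSeq start of these genes was searched after 8 of them had been called by replicate number. CREB and ATF factors bind a short shared site, the cAMP response element. RefSeq's GRCm38.p6 promoter table held 8 of the 10 members. In the 250 bases before that start, the core TGACG, read on both strands, was present in 6 of these 8 (75.0%) and in 17.8% of the 32851 promoters of the table. Nr4a1 had 4 matches, Dusp1 had 3, Fos had 2, and Fosb, Junb and Atf3 had 1 each. Of the Dusp1 matches, 2 were the 2 strands of 1 palindrome, TGACGTCA. The promoters of Jun and Jund had none in these windows. For Jund, GENCODE M21 places the start at 70698949, downstream of the start in RefSeq and in the deposited files, and the bases before that start were not searched. The full site TGACGTCA, which contains the core on both strands, was in Dusp1 alone among the 8 and in 1.55% of all promoters. An AP-1 site, TGANTCA, was in none of the 8 and in 6.75% of all, GCGNGGGCG, the site of EGR factors, was in Fosb and Nr4a1 and in 4.70% of all, and the CArG box that SRF binds was in none of the 8 and in 1.47% of all. A match is a run of letters and not a measured binding site, and the windows stop short of more distant elements. Variants of the core were not searched. Whether any of these sites had a part in the differences by number was not tested.
The 4 promoters with a core that are printed here belong to the member with the largest difference by number (Atf3, chr1:191183334-191183583, minus strand), to those with the most matches (Nr4a1, chr15:101266596-101266845, plus strand, and Dusp1, chr17:26508520-26508722, minus strand) and to the most abundant member (Fos, chr12:85473640-85473889, plus strand), and Jund (chr8:70697489-70697738, plus strand) is shown as one without. Each is written 5′ to 3′ toward the start, capitals mark the core TGACG or its reverse complement CGTCA, and for Dusp1 the 47 bases nearest the start are left out because they lie inside the gene model of the deposited files. The last 7 bases of the Atf3 window, which hold its core, also lie inside the deposited gene model, whose start is further upstream than RefSeq's.
Atf3: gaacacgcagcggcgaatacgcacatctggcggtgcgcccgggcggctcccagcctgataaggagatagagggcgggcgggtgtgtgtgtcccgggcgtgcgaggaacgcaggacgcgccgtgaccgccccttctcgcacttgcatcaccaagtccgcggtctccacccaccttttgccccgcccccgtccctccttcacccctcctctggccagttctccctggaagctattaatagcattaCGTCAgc
Nr4a1: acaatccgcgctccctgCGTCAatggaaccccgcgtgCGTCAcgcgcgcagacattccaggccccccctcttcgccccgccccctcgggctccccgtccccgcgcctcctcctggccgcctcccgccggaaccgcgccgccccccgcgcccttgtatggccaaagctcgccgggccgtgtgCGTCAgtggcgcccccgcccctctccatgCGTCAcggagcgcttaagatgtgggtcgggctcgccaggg
Dusp1: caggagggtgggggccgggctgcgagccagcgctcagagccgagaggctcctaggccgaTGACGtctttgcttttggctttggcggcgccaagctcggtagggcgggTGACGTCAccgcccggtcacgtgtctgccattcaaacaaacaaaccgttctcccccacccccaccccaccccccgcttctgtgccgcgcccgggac
Fos: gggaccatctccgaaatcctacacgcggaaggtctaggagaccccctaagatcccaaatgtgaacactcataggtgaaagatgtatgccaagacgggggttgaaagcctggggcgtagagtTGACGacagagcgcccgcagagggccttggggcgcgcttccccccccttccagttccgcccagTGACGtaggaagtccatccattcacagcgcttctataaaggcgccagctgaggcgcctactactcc
Jund: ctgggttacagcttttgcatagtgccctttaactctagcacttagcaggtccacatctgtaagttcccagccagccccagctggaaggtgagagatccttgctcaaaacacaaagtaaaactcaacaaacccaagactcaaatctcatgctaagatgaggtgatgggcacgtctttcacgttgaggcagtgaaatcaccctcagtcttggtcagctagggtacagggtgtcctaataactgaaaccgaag

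The difference was present in each genotype. In KO cells 7 members were called, all lower in replicate 1, where 1.36% of all genes were called in either direction, and in WT cells 9 were called, all lower, where 2.39% were (edgeR). Junb and Jund passed in WT and not in KO, and Jun passed in neither. The KO calls of Ier2 and Dusp1 ended without KO stage II replicate 3 or KO stage IV replicate 1, that of Ier2 also without KO stage III replicate 1, and the WT call of Jund ended without any 1 of the 3 WT replicate 1 libraries. Junb passed in KO without KO stage III replicate 1, and Jun passed in WT without KO stage III replicate 2 or 3 or KO stage IV replicate 1 or 3, which enter the shared estimate of the spread. In WT every member had its 3 replicate 1 libraries below its 6 other libraries, which held for 2.84% of all tested genes. In KO this held for 5 members (Fosb, Egr1, Nr4a1, Dusp1 and Atf3), against 1.32% of genes. Atf3 had 1.71, 3.83 and 5.35 CPM in the 3 KO libraries of replicate 1, against 18.9 to 271 CPM in the other 6, and 3.00, 3.14 and 4.91 CPM in the 3 WT libraries of replicate 1, against 80.9 to 245 CPM in the other 6. Whether the genotypes differed in this was tested directly. The log2 difference of replicate 1 was smaller in size in KO for all 10 members, by 0.06 (Fosb and Egr1) to 1.12 ± 0.26 (Atf3) on the log2 scale. None passed edgeR's test (0.0848% of all genes did). At an unadjusted p under 0.05, 5 members passed, and DESeq2 called 2, Jund and Atf3.

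**Figure D2:**
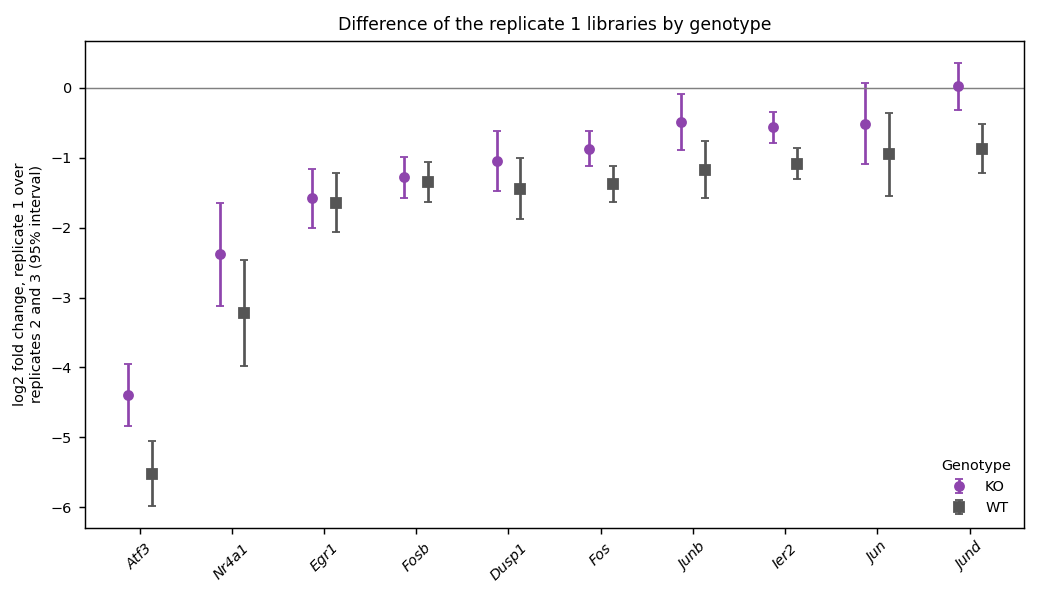
Fitted log2 fold change of replicate 1 over replicates 2 and 3 for each member (bars: 95% intervals), in KO (circles, 3 and 6 libraries) and WT (squares, 3 and 6 libraries). Atf3 lay at -4.40 in KO and -5.52 in WT, Nr4a1 at -2.38 and -3.22, and Jund at 0.02 in KO and -0.87 in WT. The intervals take same-numbered libraries as independent and may be too narrow.

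Several measures of the libraries were set beside the replicate number. Xist, which female cells transcribe, was at 35.5 to 45.2 CPM in the WT replicate 1 libraries and at 0.636 CPM or less in WT replicates 2 and 3, so the sex of the pooled mice moved with the number in WT. In KO it was between 5.66 and 36.1 CPM in all libraries. Ncr1, the locus that carries Cre in the KO mice, was lower in WT replicate 1 than in WT replicates 2 and 3, without overlap. In KO the difference of Ncr1 by number did not pass (values in the flagged results). The labels do not say whether WT mice carried Cre. Total counts ran from 18684350 to 26092733 in replicate 1 and from 20428503 to 28365837 in replicates 2 and 3. The share of counts from mitochondrially encoded genes was 0.962% to 1.51% in replicate 1 and 0.752% to 1.46% in the others.

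Summed levels of markers of other cells overlapped between the numbers, while the median fitted differences of the myeloid and B cell markers were below 0. Summed CPM in replicate 1 and in replicates 2 and 3 was 217 to 2095 and 167 to 2085 for 9 B cell markers, 17.4 to 301 and 15.0 to 354 for 10 T cell markers, and 294 to 457 and 238 to 658 for 12 myeloid markers. Itgax, which NK cells also express, made up much of the myeloid sum, with 222 to 544 CPM over all libraries. For 9 erythroid and platelet markers the sum was 3.83 to 11.4 and 4.46 to 20.1. In edgeR's contrast of the numbers 1 of the 9 tested myeloid markers was lower, with 5 at an unadjusted p under 0.05. For the B cell, T cell, erythroid and platelet, and NK cell markers, 0 of 7, 0 of 8, 0 of 8 and 0 of 10 tested were called, with 2, 1, 1 and 1 at an unadjusted p under 0.05. The median log2 difference of replicate 1 was -1.92 for the myeloid markers (-2.69 in KO and -0.65 in WT), -0.82 for the B cell, -0.33 for the erythroid and platelet, -0.08 for the T cell and 0.06 for the NK cell markers. The part of sex, of a possible difference in the Cre allele at Ncr1 and of other cells in the difference was not tested.

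Replicates 2 and 3 also differed from each other, and in opposite directions in the genotypes. In KO 8 of the 10 members were lower in replicate 3 than in replicate 2 at all 3 stages, where 20.4% of tested genes were. In WT 8 of the 10 were higher in replicate 3 at all 3 stages, where 20.2% of tested genes were. The exceptions were Junb and Dusp1 in KO and Fos and Fosb in WT, each with 1 stage the other way. Atf3 in KO had 29.99 CPM in replicate 3 against 120 CPM in replicate 2 at stage II, 18.9 against 140 CPM at stage III and 49.6 against 271 CPM at stage IV. Dusp1 in WT had 918 against 336 CPM, 1082 against 373 CPM and 1062 against 544 CPM at the same stages. With 1 library of each number in a group, these pairs have no replicate check, and the pattern was noticed in the data.

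No member differed between KO and WT cells by more than the spread between libraries. The summed CPM of the 10 members was 2375, 4924 and 3631 CPM in KO stage II (replicates 1, 2 and 3), against 2042, 4226 and 5658 CPM in WT stage II. At stage III it was 2187, 6794 and 2469 CPM in KO, against 2112, 4570 and 6229 CPM in WT, and at stage IV 1944, 5706 and 3598 CPM in KO, against 1710, 4777 and 5629 CPM in WT. The KO and WT ranges overlapped at each stage, for the sum and for each of the 10 members, whereas 19.6%, 19.9% and 13.0% of tested genes had ranges without overlap at stages II, III and IV. In edgeR 0 of 10 members were called at stage II (1.46% of all genes were), at stage III (7.90%), at stage IV (0.509%) and averaged over the stages (5.45%). Also 0 of 10 were called for a KO against WT difference that changed among stages (0.184%). In these 5 tests, fitted without a block, 0 members reached an unadjusted p under 0.05, and DESeq2 called 0 in each. With the replicate number as a block on all 18 libraries, edgeR also called 0. Averaged over stages, Fos (-0.38), Junb (0.40) and Dusp1 (0.56) then had unadjusted p of 0.0093, 0.0226 and 0.0315. It was also under 0.05 for Junb at stage III and for Fos and Fosb at stage IV. The numbers did not pair KO with WT libraries of 1 stage. These p-values measure the spread between libraries, which may be partly technical, since nothing in the labels says that each library came from separate mice. Sex also differed in part with genotype. Xist was at 5.66 to 36.1 CPM in all KO libraries and at 0.636 CPM or less in WT replicates 2 and 3. The part of sex in the KO against WT values was not tested.

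Averaged over stages, Fos was at -0.43 (log2 of KO over WT, 95% interval -1.02 to 0.16), with 1437 ± 560 CPM in KO and 1793 ± 845 CPM in WT at stage II (SD, n = 3 each). Junb was at 0.32 (-0.18 to 0.82), Dusp1 at 0.38 (-0.40 to 1.16) and Jun at -0.32 (-0.88 to 0.24). Jund, at 0.11, had the narrowest interval (-0.25 to 0.48), and Atf3, at -0.66, the widest (-2.65 to 1.32). The median of the members was -0.10, beside 0.01 over all tested genes. At stage III, Fos, Jun, Ier2 and Atf3 were at -0.36, -0.42, -0.06 and -0.88 in the fit of all libraries. Without KO stage III replicates 1 and 3, the values were 0.29, 0.42, 0.45 and 0.44. KO stage III is then replicate 2 alone, which had the highest summed level of all KO libraries, set against 3 WT libraries that include the low replicate 1. In bulk RNA, fewer expressing cells and less RNA per cell cannot be told apart.

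**Figure D3:**
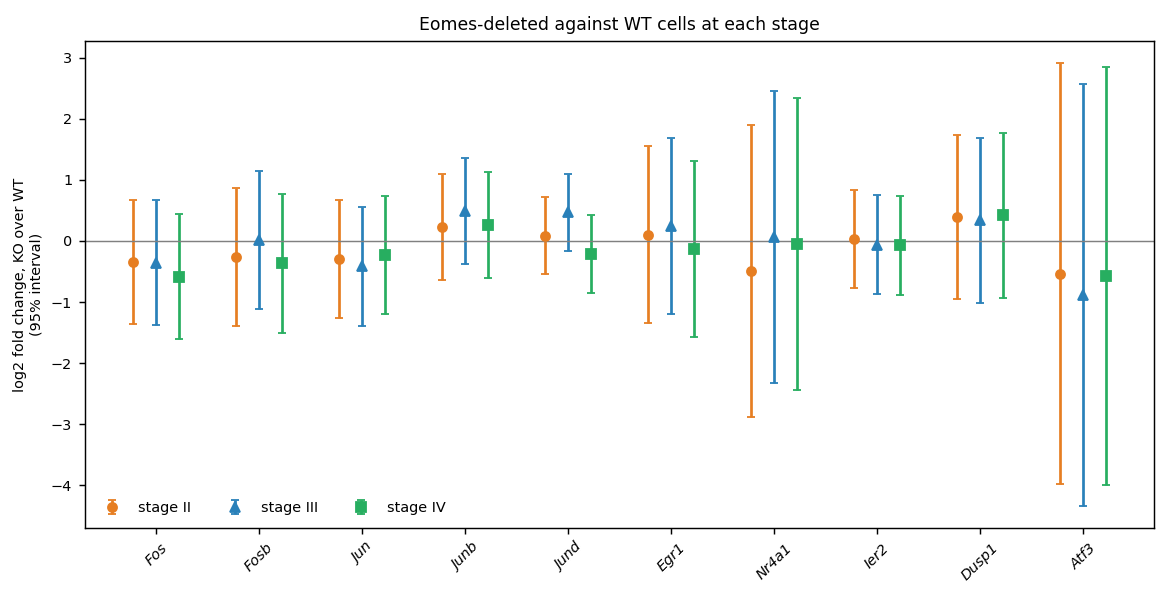
Fitted log2 fold change of KO over WT for each member at stages II (circles), III (triangles) and IV (squares), with 95% intervals. All 30 intervals included 0, and those of Atf3 and Nr4a1 were the widest.

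With maturation, some members differed in WT once libraries of the same number were compared, by 0.25 (Jund) to 1.21 (Atf3) on the log2 scale. With the 3 libraries of a stage taken as independent, edgeR called 0 of 10 members in WT stage III against II (2.97% of all genes were called), IV against III (3.17%) and IV against II (15.1%). DESeq2 also called 0, and 0 reached an unadjusted p under 0.05. Same-numbered WT libraries of different stages deviated together. With the replicate number as a block among the WT libraries alone, edgeR called 4 members higher in stage III against II, where 19.4% of genes changed. It called 4 members in IV against III (24.3% of genes) and 5 in IV against II (46.5% of genes). Set against these backgrounds, the members' share of calls in IV against II was near that of all genes.

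Ier2 and Atf3 were higher at the later stage in all 3 blocked WT contrasts. Ier2 had 226, 385 and 471 CPM in replicates 1, 2 and 3 at stage II, 266, 448 and 587 CPM at stage III, and 332, 655 and 745 CPM at stage IV. Within each number the order of the stages was the same, while the ranges of the 3 stages overlapped. Its blocked log2 change in WT was 0.33 ± 0.06 (SE) for III against II, 0.40 ± 0.06 for IV against III and 0.74 ± 0.06 for IV against II (edgeR adjusted p = 0.00224, 5.50e-04 and 1.23e-06). Atf3 had 3.14, 80.9 and 132 CPM at stage II, 3.00, 108 and 186 CPM at stage III, and 4.91, 229 and 245 CPM at stage IV. Its blocked change was 0.47 ± 0.13, 0.74 ± 0.13 and 1.21 ± 0.13 (adjusted p = 0.0238, 0.00127 and 1.06e-05). The CPM of the replicate 1 libraries was slightly lower at stage III than at stage II for this gene, so III against II rests on the other 2 numbers and on scaling.

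Fos and Fosb, the FOS genes, were lower in WT stage IV. Fos had 866, 1993 and 2521 CPM at stage II, 930, 1961 and 2264 CPM at stage III, and 646, 1584 and 1515 CPM at stage IV (replicates 1, 2 and 3). Each stage IV library was below the stage II and III libraries of its number. The blocked change was -0.47 ± 0.07 for IV against III and -0.42 ± 0.07 for IV against II (edgeR adjusted p = 5.92e-04 and 4.66e-04). Fosb was highest at stage III, with 91.9, 209 and 216 CPM at stage II, 123, 268 and 284 CPM at stage III, and 68.2, 180 and 169 CPM at stage IV. Its blocked change was 0.47 ± 0.07 for III against II, -0.72 ± 0.07 for IV against III and -0.26 ± 0.07 for IV against II (adjusted p = 3.22e-04, 1.01e-05 and 0.00733). Nr4a1 was higher in III against II (0.52 ± 0.16, adjusted p = 0.0413) and Jund in IV against II (0.25 ± 0.08, adjusted p = 0.0166). The other WT contrasts of these 2 genes, and all those of Jun, Junb, Egr1 and Dusp1, did not pass with this block.

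A block on all 18 libraries, which gives a number the same shift in KO and WT, called fewer members in WT. It called Fosb in IV against III (-0.73 ± 0.18, edgeR adjusted p = 0.0324, 3.93% of genes called) and Ier2 in IV against II (0.74 ± 0.22, adjusted p = 0.0286, 17.0% of genes called). In KO cells, with the 3 libraries of a stage taken as independent, 0 of 10 members were called in stage III against II (10.1% of all genes), IV against III (17.7%) or IV against II (14.9%). DESeq2 also called 0 there, and 0 reached an unadjusted p under 0.05. KO stages II and III also deviated together by number, and the block among KO libraries called 0 members in III against II, where 3.20% of genes changed. The block on all 18 libraries called Fosb there (0.58 ± 0.18, adjusted p = 0.0479, 12.6% of genes called). For Fosb in IV against III, where the numbers did not pair the libraries, that block gave -1.05 ± 0.18 (adjusted p = 0.00122, 21.5% of genes called), and a fit of replicates 2 and 3 only gave -1.09 ± 0.26 (adjusted p = 0.0321). In KO, Fosb had 98.6, 197 and 143 CPM at stage II, 83.2, 372 and 180 CPM at stage III, and 50.2, 167 and 113 CPM at stage IV. Each KO stage IV library was below the stage III library of its number, while the ranges of these stages overlapped. Whether changes with stage differed between KO and WT was tested as above, with 0 of 10 members called.

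**Figure D4:**
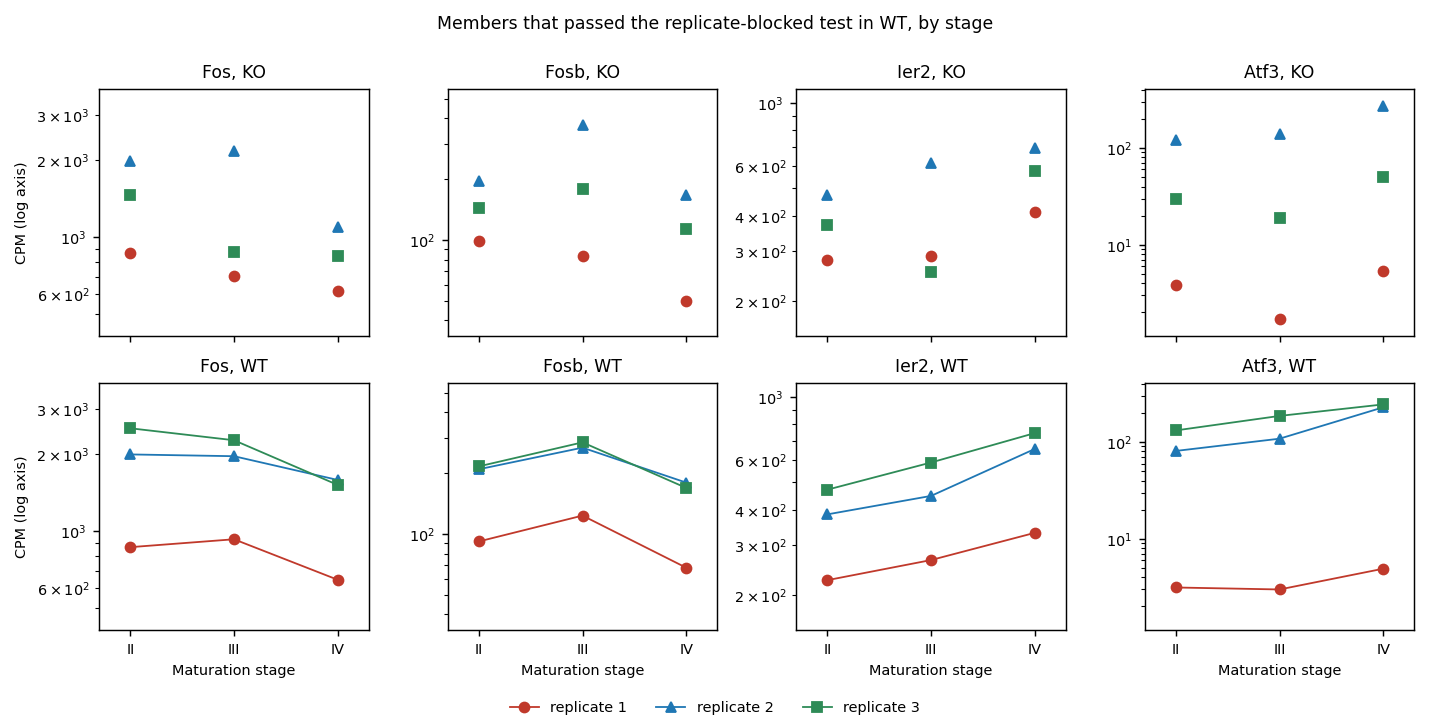
Level in CPM (log axis) of Fos, Fosb, Ier2 and Atf3 at stages II, III and IV in KO (top row) and WT (bottom row), with 1 symbol per library by replicate number. Lines join same-numbered WT libraries, whose numbers paired across stages, and show Ier2 higher and Fos lower at stage IV than at stage II within each number.

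The related lists differed in how many of their genes were lower in replicate 1. Of 35 tested genes of a list of other induced early genes, 24 were lower in replicate 1 and none higher (edgeR), with a median log2 difference of -0.85 beside 0.01 over all genes. In KO 16 were lower and in WT 25. They included Zfp36, which encodes an RNA-binding protein that speeds decay of inflammatory transcripts, with -1.33 ± 0.17, the deubiquitinase gene Tnfaip3 with -1.95 ± 0.24, and the activation marker Cd69 with -2.30 ± 0.28. The genes named for this contrast were chosen after their values were seen. Of 6 tested EGR and NR4A relatives, Nr4a2 (-1.51 ± 0.19) and Nr4a3 (-0.99 ± 0.16) were lower and 4 did not pass. Of 11 tested AP-1 relatives, Mafk, Atf4, Fosl2 and Maff were lower, by 0.68 to 1.32 on the log2 scale, and 7 did not pass. Of 11 tested heat shock and chaperone genes 6 were lower. Of 19 tested MAP kinases and upstream factors 1 was lower, and the list's median was 0.12. Among 7 dual specificity phosphatases Dusp5 and Dusp4 were lower and Dusp7 was higher.

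With genotype, edgeR called 2 of 11 tested AP-1 relatives at stage II, beside 1.46% of all genes. At stage III it called 3 of 35 other induced early genes and 1 of 7 dual specificity phosphatases, beside 7.90% of all genes. The share of the induced early genes was near that of all genes. Averaged over stages it called 1 of 11, 1 of 35 and 1 of 7 in these lists, beside 5.45% of all genes. Batf, an AP-1 partner of JUN proteins in lymphocytes, was higher in KO stage II, with 117, 101 and 108 CPM against 86.9, 78.5 and 65.2 CPM in WT (log2 0.50 ± 0.11, edgeR adjusted p = 0.029). Its relative Batf3 was lower in KO stage II, with 3.53, 2.51 and 5.51 CPM against 38.1, 36.0 and 40.3 CPM in WT (-3.31 ± 0.61, adjusted p = 0.00654). Neither pair of ranges overlapped. The summed CPM of 10 T cell markers was 173 to 236 in KO stage II and 300 to 354 in WT stage II, where 1 of 8 tested T cell markers was lower and 1 higher. Cd3d, Cd3e and Cd3g were above 0 in each of these 6 libraries, and Cd4 was at 0 in KO replicates 1 and 3 and WT replicates 2 and 3. The part of T cell RNA in the Batf3 difference was not tested. Dusp6, a phosphatase of ERK kinases, was lower in KO stage III, with 41.2, 67.2 and 36.9 CPM against 88.5, 179 and 183 CPM in WT (-1.51 ± 0.34, adjusted p = 0.0188). Among the other induced early genes Ier5 (1.01 ± 0.25), Ier5l (2.19 ± 0.59) and Btg1 (1.15 ± 0.34) were higher in KO stage III (edgeR adjusted p = 0.0262, 0.0364 and 0.0477). Btg1 had 1415, 1514 and 3815 CPM in KO stage III, with replicate 3 far above the others, against 1056, 1243 and 1284 CPM in WT. Ier5 had 178, 117 and 199 CPM, highest in the 2 libraries with the fewest detected genes, against 76.6, 96.0 and 109 CPM in WT. At this stage edgeR also called 3 of 7 tested B cell markers higher, and the median log2 change was 1.73 for the B cell, 2.46 for the myeloid and 1.6 for the erythroid and platelet markers, beside 0.02 over all genes. The part of these in the calls was not tested. Averaged over stages, Batf (0.28 ± 0.06) and the stress gene Gadd45g (0.43 ± 0.10) were higher and Dusp6 (-1.07 ± 0.19) was lower.

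In WT stage IV against II edgeR without a block called 3 of 11 tested AP-1 relatives, 0 of 6 EGR and NR4A relatives, 6 of 35 other induced early genes and 1 of 7 dual specificity phosphatases, beside 15.1% of all genes. A block on the number was not run for these lists. The single steps, III against II and IV against III, also gave calls in these lists, which are not named here. Batf3 (-8.40 ± 0.87), Batf (-0.71 ± 0.11) and Klf4 (-2.67 ± 0.37) were lower, and Dusp2 (1.43 ± 0.23), Atf7 (0.42 ± 0.13) and Gadd45g (0.72 ± 0.18) were higher. Batf3 had 0.127, 0.0812 and 0.0979 CPM in WT stage IV, against 38.1, 36.0 and 40.3 CPM in WT stage II. The fitted value of so low a gene depends on the prior count. Summed T cell markers were 17.3 to 17.8 CPM in WT stage IV and 300 to 354 CPM in WT stage II, with 6 of 8 tested lower, and their part in this was not tested. Klf4, a zinc finger factor of quiescent lymphocytes, had 7.62, 13.2 and 17.4 CPM in WT stage IV, against 61.9, 86.1 and 109 CPM in WT stage II, without overlap. Also lower were Ier5l (-2.14 ± 0.61) and Zfp36l1 (-0.90 ± 0.26), and Klf2 (1.29 ± 0.40) was higher. In KO stage IV against II the list calls had the same direction for Batf, Batf3, Klf4, Dusp2, Atf7, Zfp36l1 and Klf2, in comparisons that share no library with the WT ones. There Dusp6 (-1.80 ± 0.34), Myc (-1.61 ± 0.46) and the AP-1 repressor Jdp2 (-1.44 ± 0.37) were lower, and Nab1 (0.63 ± 0.18), a corepressor of EGR factors, and Sgk1 (2.24 ± 0.60) were higher.

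Outside the list, the genes whose profile over the 18 libraries was most like the mean standardised level of the 10 members were led by Zfp36 (Pearson r = 0.978), with Per1, a gene of the circadian clock, at 0.967, Nfkbid at 0.958, Sqstm1 at 0.955 and Srsf3 at 0.953. Gm26532, Dnajb9, Rab10os, Taf7 and Nfkbiz followed, down to 0.942. Of the 14146 other tested genes 117 (0.827%) had an r over 0.8, and the median r was -0.01. The libraries fall into replicate 1 and the rest, so these values mostly carry that split. Within the 12 libraries of replicates 2 and 3, Zfp36 was at 0.897, Per1 at 0.905, Gm26532 at 0.914 and Dnajb9 at 0.709. Zfp36 had 966 to 1333 CPM in the KO and 843 to 1009 CPM in the WT libraries of replicate 1, and 1342 to 3972 CPM and 2288 to 2968 CPM in the KO and WT libraries of replicates 2 and 3.

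The members did not all follow each other within those 12 libraries. Over the 45 pairs of members the median r of log2 CPM was 0.42, from -0.13 (Fos and Dusp1) to 0.87 (Nr4a1 and Atf3), and 40 pairs were positive. Jun with Atf3 was at 0.86, Jun with Ier2 at 0.86 and Junb with Dusp1 at 0.84. Fosb with Ier2 was at 0.01 and Fos with Ier2 at -0.01, the FOS genes that were lower at WT stage IV beside an early gene that was higher there. With Atf3, which was also higher at WT stage IV, Fos was at 0.40 and Fosb at 0.27. Within the 6 replicate 1 libraries the median r was 0.09, from -0.84 to 0.97. These are descriptions of libraries that share genotype, stage and number.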

How the data were processed

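STAR 2.0.4, Subread and featureCounts 1.4.5 are named in the submitters' processing notes. The sources used here name no genome build, read type or strand setting. Per the file headers, the authors deposited a raw read count, a CPM and an RPKM per Ensembl gene. The deposited CPM equals the count over the library total and the deposited RPKM that CPM per kilobase of listed length, so both served as levels and only counts were tested. Positions overlapped GENCODE M21 (GRCm38) for 40244 of 40340 shared IDs.

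The test was edgeR's quasi-likelihood fit (edgeR 4.0.16, limma 3.58.1, R 4.3.3) with 1 mean per group, after its filter on low counts (14156 genes left, all 10 members among them) and scaling by trimmed means of M values. P-values were Benjamini-Hochberg adjusted over all tested genes and called under 0.05. Differences between replicate numbers came from fits with the number added to the groups, or added within each genotype. The joint test of the 3 numbers was added after the data were seen. Standard errors are the absolute log2 change over the square root of F, an approximation. The functions were tested on simulated counts.

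Groups and numbers came from the labels. The numbers were taken as pairing libraries where all 3 same-numbered pairs of 2 groups had deviations from their group means correlated over 0.1 across tested genes. This held among the WT stages (0.131 to 0.485) and for KO stages II and III (0.154 to 0.313), and not for KO stage IV with other KO stages or for KO with WT of 1 stage. Among KO and WT groups of different stages it held for KO stage II with WT stage IV (0.134 to 0.292). It is a hint from the data, since no label says what a number marks, although the titles word replicate 1 differently from the others.

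The members, gene lists, tests and rules for naming genes were chosen with earlier results of these data known. All members were named. Genes of the related lists were named where they passed a genotype contrast or stage IV against II, at most 5 per list and contrast, and the 10 genes most like the members by profile. Those named for the contrast of the numbers were chosen after their values were seen. Alternatives were other scaling, no filter, DESeq2 1.42.0, blocks on the replicate number, replicates 2 and 3 only, libraries left out, and fits of only the groups compared. Intervals cover the spread between libraries, and copies made by PCR count as reads.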

Additional observations from a re-analysis of the deposited data

Results flagged for a closer look

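Among the members and the listed genes, the difference of replicate 1 from replicates 2 and 3 itself differed between KO and WT for Cd69 and Ncr1 in edgeR. This fit takes same-numbered libraries as independent, so its standard errors and p-values may be too small. For Cd69, an activation marker of lymphocytes and 1 of the other induced early genes, the 2 differences were 1.02 ± 0.15 apart on the log2 scale (SE, adjusted p = 0.0212), at -1.75 ± 0.12 in KO and -2.77 ± 0.12 in WT. Cd69 had 47.2 to 239 CPM in the 3 KO libraries of replicate 1, against 91.7 to 1342 CPM in the other 6, and 68.7 to 164 CPM in the 3 WT libraries of replicate 1, against 479 to 1000 CPM in the other 6. The ranges overlapped in KO and did not in WT.

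For Ncr1, an activating receptor of NK cells and the locus that carries Cre in the KO mice, the differences were 1.08 ± 0.12 apart (adjusted p = 0.00106), at 0.20 ± 0.08 in KO, which did not pass, and -0.88 ± 0.08 in WT. The KO libraries had 1956 to 2353 CPM of Ncr1 in replicate 1 and 1402 to 2292 CPM in replicates 2 and 3, and the WT libraries had 2111 to 2376 CPM in replicate 1 and 3600 to 4076 CPM in the others. Whether the WT libraries differed in the Cre allele is not given by the labels and was not tested.

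Cd3d, a T cell receptor subunit and T cell marker, was the listed gene whose KO against WT difference changed among stages (edgeR joint test, adjusted p = 0.014). It had 37.9 to 51.8 CPM in KO and 120 to 142 CPM in WT at stage II, 12.46 to 23.4 CPM in KO and 9.88 to 14.6 CPM in WT at stage III, and 3.54 to 6.14 CPM in KO and 3.33 to 4.66 CPM in WT at stage IV.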

How the results depend on the processing

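The lowest count of a member in any library was 34 (Atf3), and each group had 3 libraries with unlike replicate numbers, so wide intervals such as those of Atf3 leave sizeable differences undetectable. Without the filter on low counts the members called were 1 in KO against WT at stage III, 3 averaged over stages, 2 in WT stage IV against III, 3 in WT IV against II, 2 in KO III against II, 4 in KO IV against III, 4 in KO IV against II and 4 for the replicate 1 difference in KO against that in WT. In that setting the standard error of Atf3 at stage III was 0.185, against 1.64 with the filter. The members called there in contrasts of 2 groups had nearly alike standard errors, 0.183 to 0.191. With the filter those of KO against WT at stage III ran from 0.299 (Jund) to 1.64 (Atf3). The calls without the filter thus hardly carry each gene's own spread, and the cause was not tested. DESeq2 called 2 members for that last difference, leaving out KO stage III replicates 1 and 3 gave 1 (Atf3), and with replicates 2 and 3 only 1 member was called in KO IV against III (Fosb). Scaling by DESeq2's size factors, and fits of only the groups compared, changed no count of members called by more than 1.5 times.

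With the replicate block on all 18 libraries, 1 member was called in each of WT IV against III, WT IV against II, KO III against II and KO IV against III (Fosb, -1.05). With the replicate block within genotype, 4 were called in WT III against II, 4 in WT IV against III and 5 in WT IV against II, 2 in KO IV against III (Fosb and Atf3) and 3 in KO IV against II (Fos, Ier2 and Atf3), where the numbers do not pair the libraries. The block on all 18 libraries changed no call in KO against WT, where 0 members were called with that block as without. The block within genotype was not run there.

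Some log2 changes, none of them called, had the other sign. With the replicate block these included Nr4a1 (-0.21) and Fosb (-0.075) in KO against WT at stage III, Ier2 averaged over stages (0.012), Atf3 in KO III against II (-0.17, or -0.20 within genotype) and Nr4a1 in WT IV against III (-0.13, or -0.18 within genotype), and with replicates 2 and 3 only Jund averaged over stages (-0.14). Without KO stage III replicates 1 and 3, which leaves that group 1 library assumed to vary like the others, they included Fos, Jun, Ier2 and Atf3 in KO against WT at stage III (0.29, 0.42, 0.45 and 0.44), Fosb, Jund, Nr4a1 and Ier2 averaged over stages (0.013, -0.0027, 0.23 and 0.13) and Jund for replicate 1 in KO (-0.18). With each library left out in turn, the range was -0.16 to 0.056 for Ier2, -0.22 to 0.24 for Egr1 and -0.67 to 0.032 for Nr4a1 averaged over stages, and -0.43 to 0.22 for Ier2 at stage III. It was -0.31 to 1.29 for Atf3 in WT III against II, -0.49 to 0.59 for Nr4a1 in WT IV against III, -0.017 to 0.54 for Jund and -0.58 to 0.11 for Fosb in WT IV against II, and -0.19 to 0.27 for Jund for replicate 1 in KO. The members called for the replicate 1 difference in KO against that in WT were 0 to 1, with 1 (Jund) without KO stage II replicate 1. The calls of Atf3, Nr4a1, Egr1, Fos and Fosb in the contrast of the numbers passed in every setting run for them and without any 1 library, in KO and WT together and in each alone.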
